A study of Homo sapiens with 10 samples.

Results

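The fibroblast growth factor (FGF) ligand and receptor genes were followed through the differentiation of H1, an established human embryonic stem cell (hESC) line, into hepatocyte-like cells. The genes were chosen by symbol: 5 secreted ligands (FGF2, FGF4, FGF8, FGF17 and FGF19), the intracellular family member FGF13, and 4 receptors (FGFR1, FGFR2, FGFR3 and FGFR4). Of these 10 symbols, 9 had a row among the 12125 genes of the expression table, and FGF4 had none and was not analysed here. RNA-seq was available for 10 days with 1 library per day: day 0 (hESCs kept in mTeSR1, no differentiation factor), days 1, 2 and 3 (Activin A at 100 ng per ml), days 5 and 7 (30 ng per ml FGF4 and 20 ng per ml BMP2), days 9 and 11 (HGF and KGF, each at 20 ng per ml), day 13, and day 21 (Oncostatin M, OSM, at 20 ng per ml). The sample labels give OSM for day 13, whereas the steps of the protocol add up to the end of HGF and KGF on that day, and day 13 was read here as the end of that step. The medium also changed with the factors: insulin was absent during Activin A and present afterwards, and a commercial hepatocyte medium without EGF was used with OSM. No library came from cells kept without FGF4 or KGF on the same day, so the effect of a factor and the passage of time cannot be told apart.

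FGFs are mostly secreted proteins that bind receptor tyrosine kinases together with heparan sulphate and activate the RAS and ERK cascade, which in turn raises a set of feedback inhibitors. FGF8 and FGF17 are closely related ligands of the gastrulating embryo, and FGF from the cardiac mesoderm helps to specify the liver from the foregut endoderm. KGF, the protein of the FGF7 gene, acts on epithelia through the IIIb splice form of FGFR2, while FGF19 is a hormone that acts on hepatocytes through FGFR4 and the co-receptor β-Klotho (KLB). FGF13 belongs to the homologous factors that stay inside the cell and bind sodium channels.

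The deposited numbers are GC-normalized values rounded to whole numbers, not read counts, and the depth of a single library cannot be read from them. The library totals lay between 2330948 and 2362740. From 1156 upwards the values fell into 24 narrow levels that held 9 or 10 genes in every library, so that 2 genes or 2 days in the same level cannot be ranked. Among the FGF genes this touched FGF17 on days 2 and 3, FGFR1 on days 5, 7 and 9, and FGFR3 on day 7. A difference between days was taken on the log2(value + 1) scale, which makes changes of low genes look smaller. There was no replicate of any day, hence no error and no test. A gene was called higher or lower when the difference was at least 2 on that scale, 4-fold, and the larger value was at least 50. Between days 9 and 11, which share a medium, this rule called 0.213% of the 8444 genes tested. In such bulk libraries fewer cells of a type and less RNA per cell cannot be told apart. The stage markers given first are single members of their lists. POU5F1 had 4861 on day 0 and 5 on day 21, and SOX17 had 2 on day 0 and 790 on day 3. HNF4A had 0 on day 0 and 1044 on day 7, and ALB had 4 on day 0 and 4866 on day 21. Some other markers of these lists took a different course. LIN28A (pluripotent) had 2971 on day 0 and 4862 on day 5. FOXA2 (definitive endoderm) had 190 on day 3 and 343 on day 7. HHEX (hepatoblast) had 139 on day 3 and 79 on day 7, and DLK1 (hepatoblast) had 106 on day 7 and 4855 on day 21.

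The form of FGFR2 that KGF binds contains exon IIIb, which encodes part of the third immunoglobulin-like domain and is spliced in place of an alternative exon. The exon is shown because the deposited values sum over the forms of FGFR2 and cannot tell the KGF-binding form from the others. It was read from GENCODE release 29 (GRCh38, minus strand) at chr10:121518682-121518829 and is printed in lower case throughout.
FGFR2 exon IIIb: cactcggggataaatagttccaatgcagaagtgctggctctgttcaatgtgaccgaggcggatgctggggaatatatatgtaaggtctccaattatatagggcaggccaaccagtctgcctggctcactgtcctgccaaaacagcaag
The exon is 148 bases long and was held by 5 of the 20 coding transcripts annotated for FGFR2.

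FGF17 and FGF8 were the ligands of the Activin A days. FGF17 (ENSG00000158815) spans 21899909 to 21906317 of chromosome 8 (positions here are those of the table, which does not name their build). Its value was 3 on day 0, 80 on day 1, 1386 on day 2 and 2426 on day 3, and then 90 on day 5, 5 on day 7 and between 0 and 3 on every later day. The log2 difference was 9.25 from day 0 to day 3 and -8.66 from day 3 to day 7. Only the libraries of days 1, 2, 3 and 5 were above 50, and the days 2 and 3 stood far above the others. Over the 10 days its values spanned 11.25 on the log2 scale, a span that 0.223% of all genes reached.

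FGF8 (ENSG00000107831, chromosome 10 from 103530081 to 103535657) kept the same window at much lower values. It was listed at 0 on day 0, at 51, 46 and 72 on days 1, 2 and 3, at 1 on day 5 and at 0 on each of days 7, 9, 11, 13 and 21. Since day 0 was listed at 0, no fold or log2 difference is given for its rise. The Activin A days were its only libraries above 1. The first day with Activin A already separated both genes from day 0, with 80 against 3 for FGF17 and 51 against 0 for FGF8, while 1.83% of all genes tested were called in either direction over that day.

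FGF2 (ENSG00000138685, chromosome 4 from 123747863 to 123819391), the basic FGF that sustains hESCs and is itself part of mTeSR1, had its highest value before differentiation. It was 248 on day 0, 157, 84 and 60 on days 1, 2 and 3, and 14 and 9 on days 5 and 7. From day 9 to day 21 it lay between 16 and 22, below each of the first 4 libraries. The log2 difference was -2.03 from day 0 to day 3, close to the limit of the rule, and with a pseudocount of 5 this call was lost. In GENCODE release 29 FGF2 shares 804 exonic bases with NUDT6 on the opposite strand. The sources used here do not say that strand was kept, and reads from these bases cannot be assigned with certainty.

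FGF13 (ENSG00000129682, X chromosome from 137713735 to 137793827) declined later than FGF2. Its value was 141 on day 0, 196, 160 and 142 on the Activin A days, 82 and 72 on days 5 and 7, and 39, 12, 6 and 2 on days 9, 11, 13 and 21. The difference from day 0 to day 3 was 0.01, and that from day 7 to day 13 was -3.38. Its 3 lowest values were those of the last 3 libraries, whereas FGF2 was lowest on day 7. It overlaps the antisense genes FGF13-AS1 and AL031386.1 by 167 and 142 exonic bases.

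FGF19 (ENSG00000162344, chromosome 11 from 69513000 to 69519410) was present in hESCs and was low in every library of the hepatic steps. It was 74 on day 0, 41, 15 and 4 on days 1, 2 and 3, and was listed at 0 on day 5. A second, smaller maximum followed, with 15 on day 7, 32 on day 9, 12 on day 11, 2 on day 13 and 0 on day 21. Only day 0 was above 50, so that its values from day 5 on, the maximum on day 9 included, stayed under the limit of the rule.

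**Figure D1:**
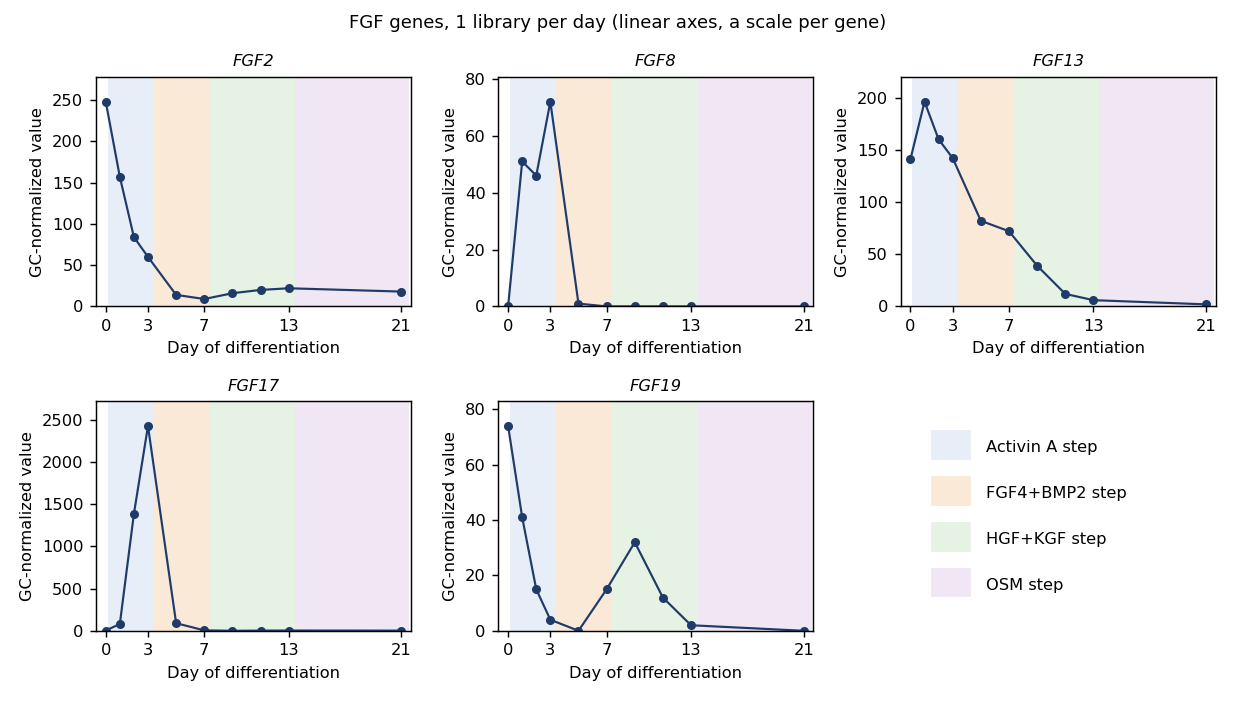
GC-normalized value (vertical axis, linear, a scale per gene) of the 4 secreted ligands and FGF13 against the day of differentiation, with each point 1 library and the shading the step of the protocol. FGF17 and FGF8 peak on day 3 at 2426 and 72, FGF2 and FGF19 are highest on day 0 at 248 and 74, and FGF13 is highest on day 1 at 196.

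The receptor genes were highest in the FGF4 and BMP2 step. FGFR1 (ENSG00000077782, chromosome 8 from 38268656 to 38326159), the main receptor of hESCs and of mesenchymal cells, had 1066 on day 0 and 890, 576 and 410 on days 1, 2 and 3. It stood at 3433 on days 5 and 7, a ratio of 8.37 to day 3, and at 2024, 853 and 346 on days 9, 11 and 13 and 220 on day 21. The libraries of days 5 and 7 share a level of the scale, and their equal values do not show equal amounts of RNA. FGFR1 shares 138 exonic bases with LETM2 and 156 with AC087623.1, both on the opposite strand.

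FGFR3 (ENSG00000068078, chromosome 4 from 1795034 to 1810592), a receptor of epithelial and skeletal tissues, was low in hESCs. It had 33 on day 0, 42 on day 1, 181 on day 2 and 234 on day 3. It then reached 744 on day 5 and 1384 on day 7, and was 1021, 804 and 496 on days 9, 11 and 13 and 348 on day 21. It was called higher both from day 0 to day 3 (log2 difference 2.79) and from day 3 to day 7 (2.56), and its lowest value after day 5 was still above every value before day 5.

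FGFR4 (ENSG00000160867, chromosome 5 from 176513915 to 176524733) is the FGF receptor typical of hepatocytes. It had 356 on day 0, 187, 174 and 184 on the Activin A days, 557 and 838 on days 5 and 7, and 668, 628, 462 and 249 on days 9, 11, 13 and 21. The difference from day 3 to day 7 was 2.18. On day 21 it was lower than on day 0, by 0.51 on the log2 scale, which is less than the rule asks.

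FGFR2 (ENSG00000066468, chromosome 10 from 123237855 to 123357598) varied least. Its lowest value was 131 on day 2, its median 230 and its highest 346 on day 7. On the days with KGF it was 236, 264 and 218, and it was called in 0 of the 16 pairs of days compared. Its span of 1.39 was reached or passed by 61.2% of all genes, and of the 9 FGF genes it was the only gene under the median span of all genes, 1.70. The median span of the 9 genes was 5.35. The gene of the KGF receptor thus had a value of at least 131 in every library, with the splice form unknown.

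**Figure D2:**
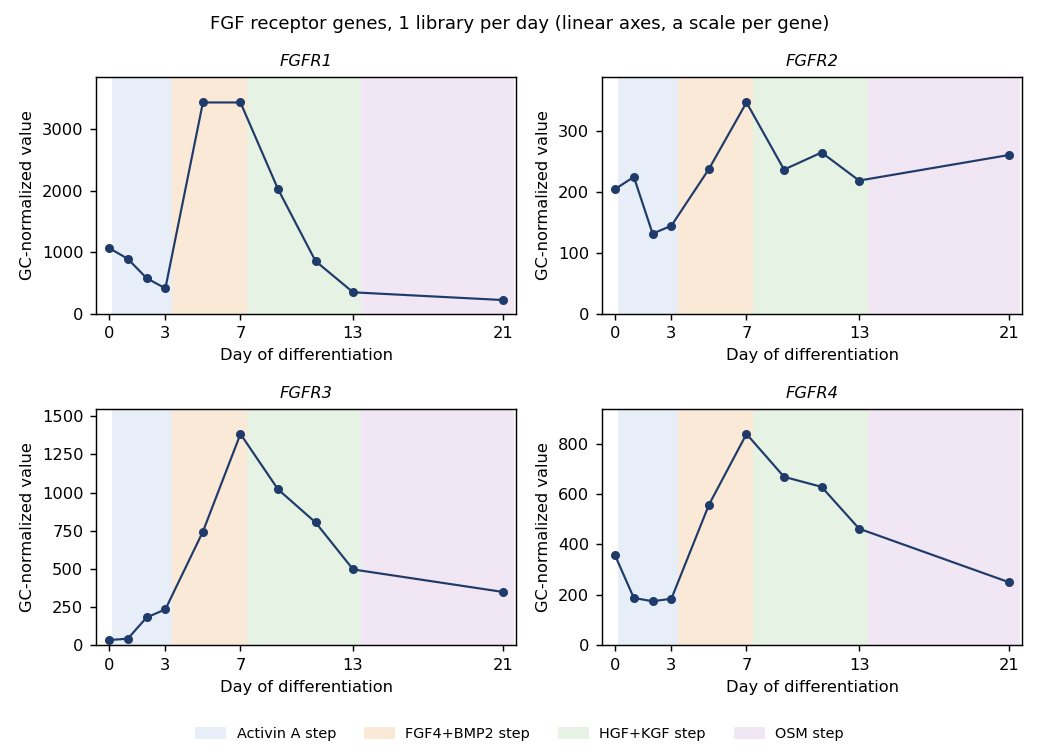
GC-normalized value (vertical axis, linear, a scale per gene) of the 4 receptor genes against the day of differentiation, with each point 1 library and the shading the step of the protocol. All 4 are highest on day 7 (FGFR1 equally on day 5), and FGFR2 stays between 131 and 346.

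The Activin A step was described by day 3 against day 0. All 9 genes had a larger value of at least 50, FGF8, FGF17 and FGFR3 were called higher, and FGF2 and FGF19 lower. Of all 8934 genes tested, 6.1% were called, 3.94% higher and 2.16% lower. FGFR1 (log2 difference -1.38), FGFR4 (-0.95) and FGFR2 (-0.50) had lower values on day 3 than on day 0 without reaching 4-fold. The median difference was -0.50 over the 9 genes and -0.04 over all genes.

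The step with FGF4 in the medium was described by day 7 against day 3. Here 8 of the 9 genes passed the limit on low values. The genes called higher were the receptors FGFR1, FGFR3 and FGFR4, with log2 differences of 3.06, 2.56 and 2.18, and those called lower were the ligands FGF2 and FGF17, with -2.61 and -8.66, and FGF8, with 72 on day 3 and 0 on day 7. FGFR2 was higher by 1.26 and FGF13 lower by 0.97, under the limit of the rule. Over all 9100 genes tested, 10% were called, 5.63% higher and 4.41% lower. The genes called higher were thus all receptors and those called lower all secreted ligands. FGF19, the remaining secreted ligand, had 4 on day 3 and 15 on day 7. On day 5 FGFR1 was already at its maximum, and the values of FGF2 (14), FGF8 (1), FGF17 (90), FGFR3 (744) and FGFR4 (557) were between those of day 3 and day 7.

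In the HGF and KGF step, day 13 against day 7, 5 of the 9 genes passed the limit on low values. FGF13 and FGFR1 were called lower, with log2 differences of -3.38 and -3.31, and 0 genes were called higher. Over all 8892 genes tested, 5.54% were called, 2.46% lower and 3.08% higher. FGFR3 (-1.48), FGFR4 (-0.86) and FGFR2 (-0.66) also had lower values on day 13. With day 11, labelled HGF and KGF, in place of day 13, FGF13 and FGFR1 were again the genes called, FGFR1 with -2.01 just past the limit, and 2.74% of all genes tested were called. FGFR1 had a lower value in each successive library from day 7 on, and the largest single difference, -1.30, lay between days 11 and 13.

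From day 13 to day 21, under OSM, 4 FGF genes passed the limit on low values, all of them receptors, and 0 were called. Over all 8786 genes tested, 3.89% were called, 2.28% higher and 1.62% lower. With day 11 in place of day 13 the count was again 0, with 5.22% of all genes called. FGFR1, FGFR3 and FGFR4 were lower on day 21 by 0.65, 0.51 and 0.89 on the log2 scale, and FGFR2 was higher by 0.25. Across the whole course, day 21 against day 0, FGFR3 was called higher (3.36) and FGF2 (-3.71), FGF13 (-5.56), FGF19 (74 on day 0, listed at 0 on day 21) and FGFR1 (-2.27) lower. Among all 9698 genes tested, 23.5% were called, 11.9% higher and 11.5% lower. FGF8 and FGF17 had 0 and 2 on day 21, against 0 and 3 on day 0.

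Between successive libraries, calls among the FGF genes were made up to day 7. FGF17 and FGF8 were called higher from day 0 to day 1, and FGF17 and FGFR3 from day 1 to day 2, when 1.41% of all genes tested were called. From day 2 to day 3 the count was 0, with 0.445% of all genes called. From day 3 to day 5 FGFR1 was called higher and FGF2, FGF8 and FGF17 lower, with 5.09% of all genes called, and from day 5 to day 7 FGF17 was called lower, with 3.59%. The counts were 0 from day 7 to day 9, day 9 to day 11 and day 11 to day 13, when 1%, 0.213% and 0.318% of all genes were called. Set over both steps with an FGF in the medium, day 13 against day 3, FGF8, FGF13 and FGF17 were called lower and 0 receptors were called, with 13.4% of all genes called. FGFR1 had 410 on day 3 and 346 on day 13, so that its maximum lay between similar values.

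**Figure D3:**
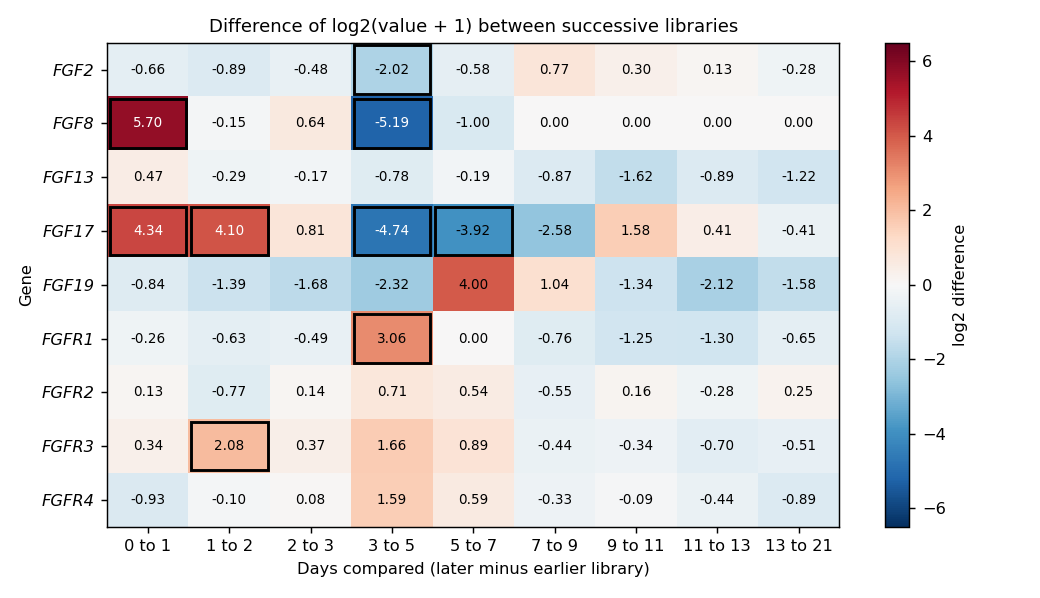
Difference of log2(value + 1) between successive libraries (columns, later minus earlier) for the 9 FGF genes (rows), red for higher and blue for lower in the later library, with a black frame around each difference that met the rule. The framed cells lie between day 0 and day 7, and 0 are framed from day 7 on.

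The values are not per length, so genes were set against each other only after division by length. Per kb of the longest coding sequence, FGFR1 led the 9 genes on days 0, 1, 5, 7, 9 and 11, FGF17 on days 2 and 3, and FGFR3 on days 13 and 21. On day 11 FGFR1 and FGFR3 were nearly level by this length, at 333 and 332. Per kb of all joined exons, FGFR3 led from day 7 on, and FGF17 led again on days 2 and 3. The choice of length therefore decides whether FGFR1 or FGFR3 came first on days 7, 9 and 11. The share of FGFR1 in the summed level per kb of coding sequence of the 4 receptors was 63% on day 0, 67.9% on day 5 and 19.6% on day 21. That of FGFR3 was 2.06%, 15.5% and 32.7%, that of FGFR4 22.4%, 11.7% and 23.6%, and that of FGFR2 12.5%, 4.86% and 24.0% on the same days. With joined exons the share of FGFR1 was 41.7% on day 0, 45.2% on day 5 and 9.16% on day 21. Its lower share at the end was fixed for any choice of lengths. A length is the same on every day, and of the 4 receptors FGFR1 had the lowest ratio of day 21 to day 0. The summed level per kb of coding sequence of the receptors was 392 on day 3, 2400 on day 7 and 438 on day 21. There is no spread between libraries of 1 day against which neighbours in these orders could be set.

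**Figure D4:**
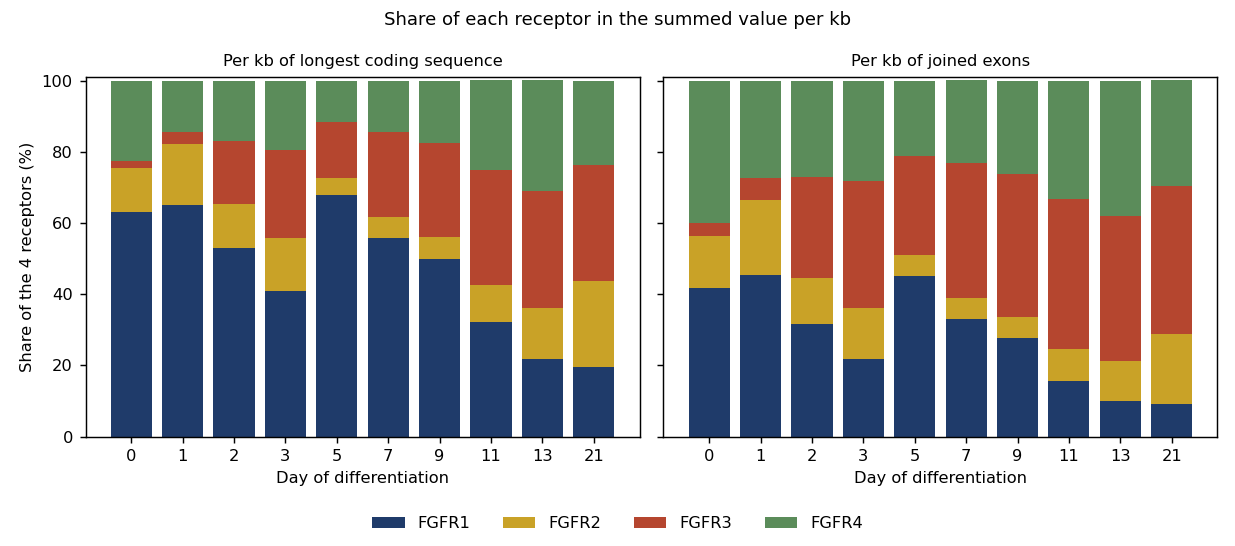
Share in percent (vertical axis, from 0) of each of the 4 receptors in their summed value per kb in each library (horizontal axis, day), with length as the longest coding sequence (left) or all joined exons (right). The share of FGFR1 goes from 63% on day 0 to 19.6% on day 21 at left and from 41.7% to 9.16% at right.

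The upstream sequences of FGFR3 and FGFR4 are shown because both receptors were called higher from day 3 to day 7. FGFR1 was called higher as well, but no entry was used for it. They were taken from the RefSeq promoter table (GRCh38.p14, plus strand), in which an entry was used for 5 of the 10 FGF symbols, as the 250 bases before the first listed start, chr4:1793043-1793292 for FGFR3 and chr5:177086665-177086914 for FGFR4. Capitals mark GC boxes (GGGCGG on either strand).
FGFR3: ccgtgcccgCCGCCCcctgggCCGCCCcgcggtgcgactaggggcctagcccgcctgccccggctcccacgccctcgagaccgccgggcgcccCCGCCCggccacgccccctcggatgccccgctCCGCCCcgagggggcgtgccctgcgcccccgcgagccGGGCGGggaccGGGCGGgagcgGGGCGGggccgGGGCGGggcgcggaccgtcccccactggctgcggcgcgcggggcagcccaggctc
FGFR4: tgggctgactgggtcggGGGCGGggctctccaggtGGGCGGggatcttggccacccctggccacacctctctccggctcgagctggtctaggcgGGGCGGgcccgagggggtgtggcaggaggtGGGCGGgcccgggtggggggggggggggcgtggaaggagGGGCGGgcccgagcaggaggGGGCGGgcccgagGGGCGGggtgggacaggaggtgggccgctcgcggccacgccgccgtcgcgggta
FGFR3 held 8 GC boxes and FGFR4 7, and 42.6% of the 35116 promoters of this length held at least 1. The GC content was 86.8% for FGFR3 and 79.6% for FGFR4, against a median of 58.0% over the background promoters. Each of 4 further motifs was searched on both strands and had 0 matches in these windows. The TATA box, spelled TATAAA, was found in 10.7% of the background promoters. The core of ETS factor motifs, CCGGAA, was found in 14.5%. A FOXA motif spelled TGTTTAC was found in 2.98%, and a GATA motif spelled AGATAA in 9.17%. Overlapping matches were counted.

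The other FGF genes listed, secreted ligands and intracellular homologous factors, numbered 16, of which 4 had a row. FGF7, the gene of KGF, was low throughout, with 17 on day 0, 18 on day 7, 28, 22 and 36 on days 9, 11 and 13 and 36 on day 21. FGF10, which like FGF7 signals to epithelia through FGFR2, lay between 2 on day 0 and 48 on day 5. Neither reached 50 in any library. FGF11, like FGF13 an intracellular homologous factor, was 92 on day 0, 22 on day 1, 6 on day 13 and 164 on day 21. It was called lower from day 0 to day 1, with 1.83% of all genes tested called in either direction. Over the OSM step it was called higher, with 2.28% of all genes tested called higher. FGF12, also such a factor, was 24 on day 0, 40 on day 2, 1 on day 13 and 0 on day 21.

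Among the co-receptors and binding proteins, 5 of 10 listed genes had a row, and those with the widest spans follow. KLB, the partner of FGFR4 in the response to FGF19, was between 1 and 6 up to day 5, 127 on day 7, between 118 and 124 on days 9, 11 and 13, and 459 on day 21. FLRT3, a membrane protein that binds FGF receptors, was 18 on day 0 and 176 on day 3. It was between 2643 and 3868 from day 5 to day 13 and 1439 on day 21. All its values from day 5 on lay in the shared levels of the scale. Its relative FLRT2 was 8 on day 0, 126 on day 3, 684 on day 7 and 589 on day 21. FGFBP3, which releases FGFs from the matrix, was 271 on day 0, 636 on day 3, 30 on day 5 and 1 on day 21. From day 3 to day 7 KLB, FLRT2 and FLRT3 were called higher and FGFBP3 lower, against 5.63% and 4.41% of all genes tested. Day 7 was thus the first library in which KLB was found beside high FGFR4, while FGF19 itself was at 15.

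Of the 10 genes listed for the bile acid axis of FGF19, 3 had a row. Beside KLB these were CYP27A1, an enzyme of bile acid synthesis, with 21 on day 0, 87 on day 3, 179 on day 7 and 109 on day 21, and SLC10A1, the bile acid importer of hepatocytes, with 0 on day 0, 36 on day 13 and 508 on day 21. All 3 were called higher on day 21 than on day 0, with 11.9% of all genes tested called higher. CYP7A1, NR1H4 and NR0B2 had no row and were not analysed here.

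The genes that respond to ERK and feed back on it were described from a list of 16, of which 14 had a row. From day 3 to day 5, the first library with FGF4 in the medium, 10 of the 14 had a higher and 4 a lower value, and 0 were called, against 5.09% of all genes tested. The median difference was 0.48 against 0.00 over all genes. From day 5 to day 7, with the same factors, 11 had a lower and 3 a higher value, and DUSP4 and DUSP6 were called lower, against 3.59% of all genes tested called in either direction. The median difference was -0.57 against -0.02 over all genes. From day 3 to day 7, 7 of the 14 had a higher and 7 a lower value, and ETV4 and IL17RD were called lower. Of all genes tested, 4.41% were called lower. Over the HGF and KGF step, day 13 against day 7, 12 had a lower and 2 a higher value. DUSP4, DUSP5 and IL17RD were called lower, against 2.46% of all genes tested. The median difference there was -0.83 against -0.04 over all genes. DUSP4, a phosphatase that inactivates ERK, had 34 on day 0, 232 on day 3, 350 on day 5 and 72 on day 7. DUSP6, the cytoplasmic ERK phosphatase, chosen for mention after its values were seen, had 1280 on day 0, 314 on day 3, 840 on day 5 and 140 on day 7. SPRY4, an inhibitor of receptor signalling, was 854 on days 0 and 1, 326 on day 3, 363 on day 5, 122 on day 7 and 24 on day 21.

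The ERK-responsive ETV4, a transcription factor of the ETS family, had 357 on day 0, 256 on day 3, 120 on day 5, 48 on day 7 and 3 on day 21. IL17RD, a membrane inhibitor of FGF signalling, had 472 on day 0, 746 on day 1, 304 on day 5 and 102 on day 7. From day 0 to day 21, 13 of the 14 genes had lower values and 6 were called lower, namely SPRY4, DUSP6, ETV1, ETV4, ETV5 and IL17RD, with 11.5% of all genes tested called lower. EGR1, an immediate early gene, had 194, 19 and 219 on days 9, 11 and 13, a difference larger than the rule asks between libraries of 1 medium.

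**Figure D5:**
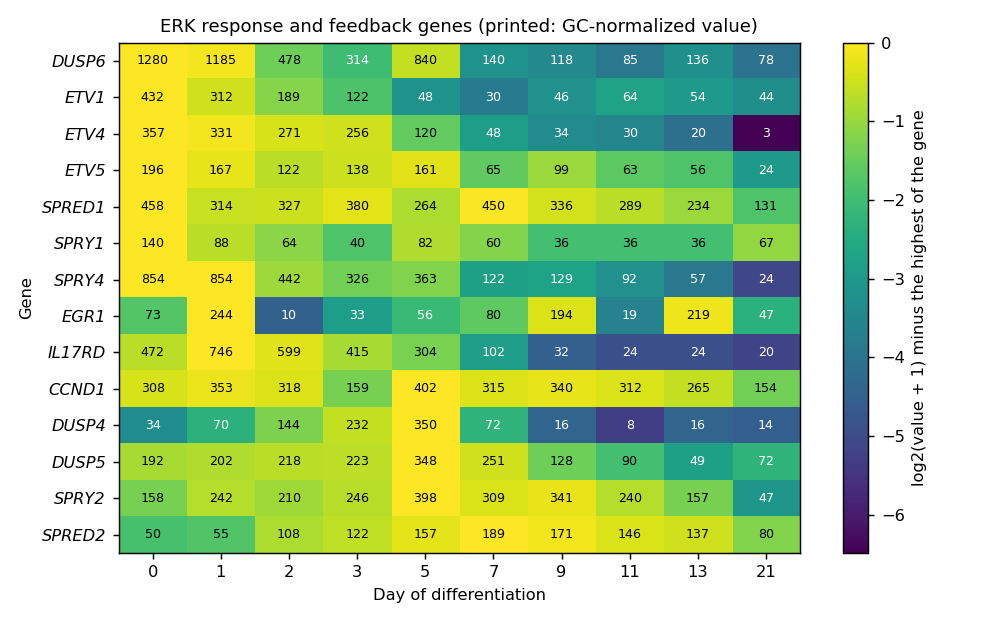
GC-normalized value (printed in each cell) of the 14 ERK response and feedback genes (rows) in each library (columns, day), with colour for log2(value + 1) minus the highest of the gene. DUSP4, DUSP5, SPRY2 and CCND1 are highest on day 5, and ETV4 goes from 357 on day 0 to 3 on day 21.

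ESRP1 and ESRP2, epithelial splicing factors that favour exon IIIb of FGFR2, were present in every library. ESRP1 had 424 on day 0, 254 on day 3, 288 on day 7, 190, 239 and 255 on days 9, 11 and 13 and 102 on day 21. ESRP2 lay between 134 and 218. RBFOX2 and PTBP1, which also act on this exon choice, lay between 290 and 620 and between 659 and 1886. In none of the 4 steps was any of these 4 genes called, when 6.1%, 10%, 5.54% and 3.89% of all genes tested were called. On day 21 against day 0 ESRP1 was called lower, by 2.04 on the log2 scale and just past the limit. Of all genes tested, 11.5% were called lower in that comparison.

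The genes whose course was most like that of each FGF gene were found by Pearson's r of log2(value + 1) over the 10 libraries among 10742 genes. The points are libraries of 1 time course, so many genes that rise or fall once are alike by this measure. FGFR3 was most like KRT19, a keratin of simple epithelia (r = 0.996), and then PPP1R15A (0.987). FGFR4 was most like C17orf96 (0.981), RNF43 (0.974) and RAB11FIP4 (0.970), and FGFR1 most like UNC13B (0.964), NFXL1 (0.956) and KIAA0226L (0.948). FGFR2, with its narrow span, reached 0.945 with SLC2A13, 0.918 with TFCP2L1 and 0.909 with FGD1.

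FGF8 was most like GSC (0.975) and CER1 (0.974), genes of the anterior primitive streak and endoderm, and HEBP2 (0.972). CER1 was at 18734, the top of the scale, on days 2 and 3. FGF17 was most like ARMC7 (0.992), GPM6A (0.979) and VAMP8 (0.967). FGF2 was most like ETV1, itself an ERK-responsive gene (0.994), C2orf44 (0.984) and CCDC88A (0.983). FGF13 was most like RBPMS2 (0.996), API5 (0.994) and RG9MTD1 (0.991), and FGF19 most like HRSP12 (0.930), MFSD3 (0.924) and GTF3C2 (0.908). Ranked by Spearman's rho, 7 of the 27 genes found in this way were among the 3 most like, and GSC was at place 1537 for FGF8, whose 6 libraries at 0 are tied. Between the FGF genes, FGF8 and FGF17 had an r of 0.90, FGFR2 and FGFR4 of 0.75, FGFR3 and FGFR4 of 0.71, and FGF2 and FGFR3 of -0.97.

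Markers of other cell types changed over the same days. The 11 stromal markers listed, all with a row, summed to between 1548 and 3093 on days 0 to 5 and to 5376 on day 7. Their sum was 39491 on day 13 and 42127 on day 21. On both of these days COL1A2 was at 18734, the top of the scale, and COL3A1 at 6502, also a shared level. LUM was at 0 up to day 3, COL3A1 at 0 on day 0 and DCN at 0 on days 2 and 3. THY1, also of this list, held most of the day 0 sum with 2164 and had 10 on day 7. From day 3 to day 7, 9 of the markers passed the limit on low values. Of these, 5 were called higher and 2, THY1 and TAGLN, lower, against 5.63% and 4.41% of all genes tested. From day 3 to day 7 both the stromal sum and FGFR1 were higher in the later library. From day 7 on FGFR1 had lower values while that sum was larger. The part of such cells in its level was not tested. Of the 6 gut and biliary markers, 4 had a row (CDX2, KRT19, KRT7 and EPCAM). Their sum was 650 on day 0, 1578 on day 3, 5107 on day 7 and 2047 on day 21. KRT19 held most of it on days 3, 7 and 21, with 936, 3861 and 1157. CDX2, at 0 up to day 3, had 116 on day 7, while KRT7 was at 0 on days 1, 2 and 3. The part of these markers in the course of FGFR3, whose most similar gene was KRT19 itself, was not tested.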

How the data were processed

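RNA of H1 cells was sequenced on a MiSeq on 10 days, with 1 library per day. According to their methods, the authors aligned reads to an Ensembl transcriptome, written there as mm10 although the gene identifiers are human, with Bowtie2 2.2.0 and RSEM 1.2.17 and normalized for GC content with EDASeq. The values deposited by the authors are scores, whole numbers that share nearly the same distribution in every library. They are not counts, are not per length, and do not give the depth of a library, so no interval was computed. Columns were matched to days by name and sample title.

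Members and gene lists were chosen with earlier results of these data known. Differences, calls, likeness and shares per kb were computed with Python 3.11.15, numpy 2.4.6 and pandas 2.3.3, with plots in matplotlib 3.10.9, and the code was tested on simulated data. Lengths, overlaps and exons came from GENCODE release 29 (GRCh38), in which all 9 Ensembl identifiers were found. The intervals of the table were printed as given. The genes named are the members, up to 4 genes of the widest span per list, and the 3 genes most like each member, of which 1 is not reported here. Genes outside this rule were named where a call or a stage marker is described. Alternatives were other pseudocounts, scalings, limits on low values and folds, and day 11 for day 13. The qPCR and knockout experiments of the study were not analysed here.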

Additional observations from a re-analysis of the deposited data

How the results depend on the processing

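Of 47 alternative counts of called FGF genes, 42 stayed within 1.5 times the count given above. With the larger value at least 200, 3 in place of 5 genes were called from day 0 to day 3, 1 in place of 2 from day 7 to day 13 and 3 in place of 5 from day 0 to day 21, since fewer genes are tested. With a log2 difference of at least 3, 3 in place of 5 were called from day 0 to day 3 and 3 in place of 6 from day 3 to day 7, as a higher limit passes fewer genes. From day 13 to day 21 the count was 0 under every alternative. Of the 45 single differences, 7 moved by more than 0.36, the standard deviation of log2 differences between days 9 and 11, with a pseudocount of 0.1, 13 with 5, and 0 under both rescalings of the libraries. The last result was fixed by the earlier normalization, since the scaling factors lay only between 0.92 and 1.06, and it does not measure stability. None of the called differences changed sign, but this too was fixed in advance. The same pseudocount added to both values cannot reverse their order, and the rescalings were too small to do so. Median of ratios scaling shifted the median of all genes by 0.18 from day 0 to day 21 and by at most 0.09 in the other comparisons. Of the 90 places of the 9 genes in the order per kb over the 10 days, 38 were the same with joined exons, an alternative chosen after seeing the data. No paired analysis was possible because each day has 1 library. Values near 50 or below are the least certain, and the lack of replicates limits every difference.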

Other observations

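Of 18 listed genes of receptor-proximal and RAS to ERK signalling, 17 had a row, and 0 were called in the 4 steps or from day 0 to day 21, when 6.1%, 10%, 5.54%, 3.89% and 23.5% of all genes tested were called. Between other days SOS1 did span 2.07 on the log2 scale. The widest spans were those of SOS1, the exchange factor that loads RAS, with 118 on day 0, 63 on day 2 and 267 on day 21, and of MAPK3, which encodes ERK1, with 70 on day 0, 266 on day 13 and 184 on day 21. GAB1, a docking protein, had 54 on day 0 and 202 on day 21, and HRAS had 47 on day 0, 142 on day 2 and 38 on day 21.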
